A study of Homo sapiens with 4 samples.

Results

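The S100 and annexin genes encode the main families of small calcium sensors and calcium-dependent membrane binders of epithelial cells, and 31 of them were measured among the 19775 genes tested. Members were all genes whose annotated symbol is S100 followed by A, B, G, P or Z and its number, or ANXA followed by a number, which gave 20 S100 genes and 11 annexins. Each gene is represented by the probe set, a group of array probes read as 1 value, that has the highest mean over the 4 arrays among those annotated to a single symbol. Expression was measured on arrays in CAPAN2 cells, an established line from a human pancreatic ductal adenocarcinoma. On 2 arrays the cells had been transduced with lentivirus carrying shRNAs against LLGL1, the human counterpart of the fly polarity gene lethal giant larvae, and on 2 arrays with lentivirus carrying control shRNAs. All cells grew with 10% serum and were exposed to virus overnight with 8 µg/ml hexadimethrine bromide, an agent that aids transduction. The labels do not give the time between transduction and harvest, the number of shRNAs, or whether transduced cells were selected. They call the 2 arrays of a group biological replicates without naming separate cultures, so a p-value here reflects only how far these arrays spread, which may be technical. The comparison asks how these cells differ when LLGL1 is targeted.

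S100 proteins are small proteins with paired EF-hand loops that bind calcium and then expose a surface for partner proteins. Most act as dimers inside the cell, and some are secreted and signal through the receptor AGER. Annexins carry a conserved core that binds acidic phospholipids when calcium is present, and several of them pair with a particular S100 protein. S100P, S100A2, S100A4 and S100A6 are well known from pancreatic ductal adenocarcinoma, where they are often abundant.

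Array medians over all probe sets were 2.95 to 2.98 on the log2 scale, and arrays correlated at 0.997 within each group and at 0.993 to 0.994 between groups, a description across probe sets, not across independent samples. LLGL1 itself read 6.73 and 6.71 (log2) on the arrays labelled LLGL1 shRNA, against 6.83 and 6.86 on the control arrays. The difference of -0.12 (SE 0.0511, limma adjusted p = 0.22) did not pass, and with the mean of all LLGL1 probe sets it was 0.0079 (limma adjusted p = 0.96). The targeted transcript therefore does not bear out the labels, and each direction given is between groups named by their labels. The 8 markers of ductal epithelium were above the array medians on all arrays, with summed linear signals of 13344 and 13476 on the arrays labelled LLGL1 shRNA and 15671 and 15888 on the control arrays. Of these 8, KRT7 rose by 1.62 on the log2 scale, while KRT19 fell by 0.61 and CDH1 by 0.47 (limma adjusted p = 0.0214, 0.0305 and 0.0356). The 3 probe sets for 18S ribosomal RNA differed by a mean log2 change of -1.97, and the 24 for spike transcripts added before labelling by -1.14. The part of these shifts in the results below was not tested. A lower signal in bulk RNA does not separate fewer expressing cells from less RNA per cell.

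Promoter windows of 5 members that passed the test are given as examples. Each runs from 250 bases before to 50 bases after a RefSeq start (GRCh38.p14), read 5′ to 3′ on the gene's strand. S100A11 was the member that rose, S100A6, S100A4 and S100A2 fell and lie near each other on chromosome 1, and S100P fell and lies on chromosome 4. S100A14 and ANXA3 fell as well, and their windows, which hold no match to the motifs below, are not shown. Nor is a second S100A2 window without a match. Each window shown thus holds a match, and the 5 do not stand for all members that passed. Capitals mark matches on either strand to 4 motifs chosen after the expression results were known: the GC box bound by SP1 and related factors (GGGCGG), the AP-1 site (TGANTCA), the STAT site (TTCNNNGAA) and the TATA box (TATAAA).
S100A11, chr1:152036955-152037254, minus strand: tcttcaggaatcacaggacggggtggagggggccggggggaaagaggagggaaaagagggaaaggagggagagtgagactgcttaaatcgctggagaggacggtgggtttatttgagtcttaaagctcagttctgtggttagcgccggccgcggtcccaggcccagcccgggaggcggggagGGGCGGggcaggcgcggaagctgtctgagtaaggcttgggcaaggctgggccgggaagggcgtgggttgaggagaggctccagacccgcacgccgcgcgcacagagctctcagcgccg
S100A6, chr1:153535942-153536241, minus strand: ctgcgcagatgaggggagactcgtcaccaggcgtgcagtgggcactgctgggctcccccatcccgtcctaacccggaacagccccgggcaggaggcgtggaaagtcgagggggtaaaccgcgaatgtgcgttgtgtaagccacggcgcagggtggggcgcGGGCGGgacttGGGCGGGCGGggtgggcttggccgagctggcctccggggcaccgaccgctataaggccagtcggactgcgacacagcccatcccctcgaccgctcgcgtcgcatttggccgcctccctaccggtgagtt
S100A4, chr1:153545757-153546056, minus strand: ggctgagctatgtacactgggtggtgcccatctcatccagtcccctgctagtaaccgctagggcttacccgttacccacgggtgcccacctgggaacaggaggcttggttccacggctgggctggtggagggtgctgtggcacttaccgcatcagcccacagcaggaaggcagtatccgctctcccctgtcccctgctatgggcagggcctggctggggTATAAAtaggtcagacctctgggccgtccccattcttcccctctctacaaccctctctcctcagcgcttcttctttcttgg
S100A2, chr1:153565795-153566094, minus strand: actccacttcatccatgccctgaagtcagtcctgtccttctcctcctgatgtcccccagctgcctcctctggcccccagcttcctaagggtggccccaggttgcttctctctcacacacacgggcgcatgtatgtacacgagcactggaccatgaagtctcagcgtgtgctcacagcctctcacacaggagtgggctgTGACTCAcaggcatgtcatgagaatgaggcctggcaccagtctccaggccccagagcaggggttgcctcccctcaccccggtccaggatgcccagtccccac
S100P, chr4:6693628-6693927, plus strand: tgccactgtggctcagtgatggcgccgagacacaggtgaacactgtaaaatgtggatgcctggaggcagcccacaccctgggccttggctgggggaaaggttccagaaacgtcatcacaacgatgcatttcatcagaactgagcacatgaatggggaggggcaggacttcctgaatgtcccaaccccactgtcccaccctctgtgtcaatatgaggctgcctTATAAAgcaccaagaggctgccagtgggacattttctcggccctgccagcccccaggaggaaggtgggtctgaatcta

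In the S100A6 window 3 GC boxes began 90, 79 and 75 bases before the start (position -90, -79 and -75), the last 2 of them overlapping. The S100A11 window held 1 GC box, at -68. The S100A4 and S100P windows each held a TATA box, at -31 and -28, and the S100A2 window an AP-1 site at -52. S100A2 has a second RefSeq window with no match to the 4 motifs. RefSeq windows were matched for 29 of the 31 members, 40 windows in all. Of the 7 members that passed the test, 2 held a GC box, 2 a TATA box, 1 an AP-1 site and 0 a STAT site. Among all 29 members with a window, 13 held a GC box, 14 a TATA box, 5 an AP-1 site and 4 a STAT site. S100A14 and ANXA3, which also passed, had no match to any of the 4 motifs in their windows. Among the 40 member windows 37.5% held a TATA box, against 11.5% of all 35116 windows of the same length. The shares with a GC box were 35% of member windows and 45% of all windows, those with an AP-1 site 12.5% and 7.71%, and those with a STAT site 10% and 7.66%. A match is only a run of letters in this window and was not tested as a binding site.

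Across the 31 members, 6 fell, 1 rose and 24 did not pass the limma test, for which the adjusted p had to be below 0.05, which gives 22.6% called. Over all 19775 genes 6.28% were called, 3.07% lower and 3.21% higher, and among the 1932 genes with a mean log2 signal of at least 8, where the test calls more, 10.5% were called, 6% lower and 4.5% higher. Of the 14 members at that level 6 were called. The S100 genes that fell were S100A2, S100P, S100A14, S100A4 and S100A6, the annexin that fell was ANXA3, and S100A11 rose. Their changes were moderate, between 1.27-fold and 1.79-fold. The median log2 difference was -0.15 over the members (-0.13 for the S100 genes, -0.18 for the annexins) and 0.01 over all genes. None of the members is listed in the authors' deposited table, which holds 294 probe sets that differ at least 2-fold.

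**Figure D1:**
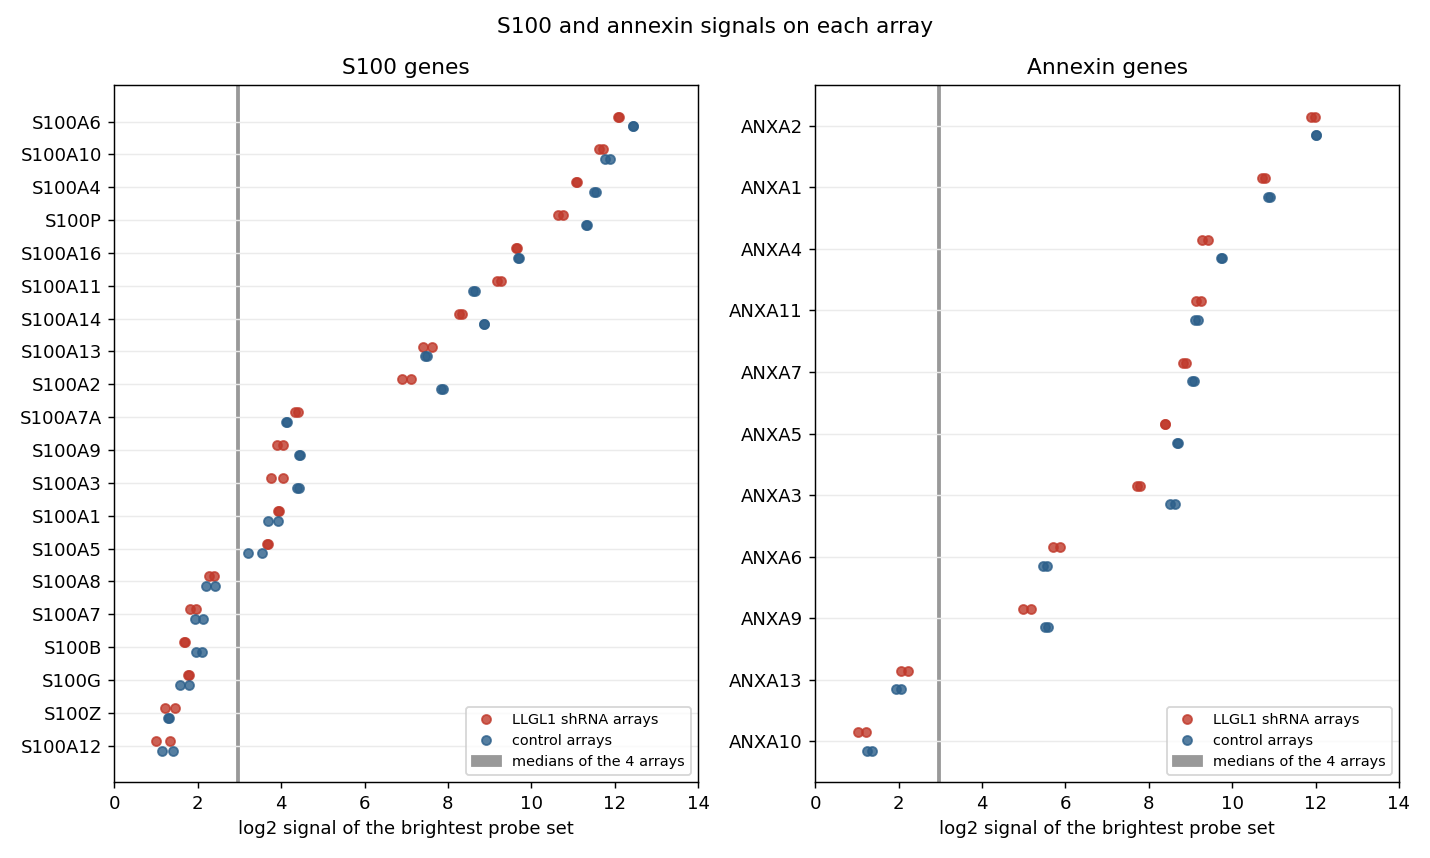
Log2 signal of the brightest probe set of each of the 20 S100 genes (left) and 11 annexins (right) on each array, with arrays labelled LLGL1 shRNA in red above and control arrays in blue below, and a grey band for the medians of the 4 arrays (2.95 to 2.98). S100A11 sits to the right on the red arrays, while S100A2, S100P, S100A14, S100A4, S100A6 and ANXA3 sit to the left of the blue ones, and 8 members lie below the grey band.

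S100A2, an S100 protein of basal epithelial cells whose gene is a known target of p53 family factors, showed the largest fitted fall among the members. It read 7.12 and 6.91 (log2) on the arrays labelled LLGL1 shRNA, against 7.83 and 7.87 on the control arrays. Both arrays of the first group lay below both controls, and the spread was wider among them (SD 0.151, against 0.0319 for control, n = 2 each). The log2 difference was -0.84 (SE 0.0923, 95% interval -1.09 to -0.58), or 1.79-fold lower (limma adjusted p = 0.0353). Leaving out any 1 array, it ranged from -0.94 to -0.73.

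S100P, a secreted S100 protein first described in placenta that binds ezrin and signals through AGER, fell from the bright end of the arrays. Its signal was 10.77 and 10.65 on the arrays labelled LLGL1 shRNA and 11.31 and 11.34 on the control arrays, so the groups were well apart. The log2 difference was -0.61 (SE 0.0655, limma adjusted p = 0.0349), which is 1.53-fold lower. S100P is measured by 1 probe set, and so are S100A2, S100A14, S100A4, S100A11 and ANXA3.

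S100A14, a member expressed in many simple and stratified epithelia, read 8.34 and 8.28 on the arrays labelled LLGL1 shRNA, against 8.86 and 8.86 on the control arrays. The control arrays were nearly equal, and the other group lay below them by -0.55 (SE 0.0552, limma adjusted p = 0.0331), or 1.47-fold. S100A16, which lies next to S100A14 among the members on chromosome 1 and is also an epithelial S100 protein, read 9.65 and 9.63, against 9.68 and 9.70. Its difference of -0.05 had a 95% interval of -0.19 to 0.09 and did not pass (limma adjusted p = 0.602).

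S100A4, which binds non-muscle myosin and is known for its association with cell motility and metastasis, read 11.09 and 11.07 on the arrays labelled LLGL1 shRNA and 11.49 and 11.56 on the control arrays. It fell by 0.45 on the log2 scale (SE 0.0547, limma adjusted p = 0.0381), a 1.36-fold lower signal. S100A6, or calcyclin, which binds the ubiquitin ligase adaptor CACYBP and annexin A11, read 12.09 and 12.09, against 12.43 and 12.44. Replicates of S100A6 agreed closely (SD 0.00537 and 0.00686, n = 2 each), and its log2 difference of -0.35 (SE 0.0498, limma adjusted p = 0.0454) was the smallest of the 7 that passed. Its dimmer probe set read 4.25 and 4.08, against 4.92 and 4.96, a log2 difference of -0.77.

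S100A11, or calgizzarin, a partner of annexin A1 that takes part in membrane repair and keratinocyte growth control, went the other way. It read 9.27 and 9.18 on the arrays labelled LLGL1 shRNA, against 8.61 and 8.64 on the control arrays. Both arrays of the first group were above both controls, by 0.60 on the log2 scale (SE 0.0607, 95% interval 0.43 to 0.77, limma adjusted p = 0.0334), or 1.52-fold. RefSeq lists several S100A11 pseudogenes, and whether the probes tell them apart was not tested.

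These 7 calls lie close to the threshold, with adjusted p from 0.0318 to 0.0454. With each probe set entered as a test of its own and p-values adjusted over all probe sets, 0 of the 7 passed (adjusted p 0.0518 to 0.067), while 192 genes in all did.

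**Figure D2:**
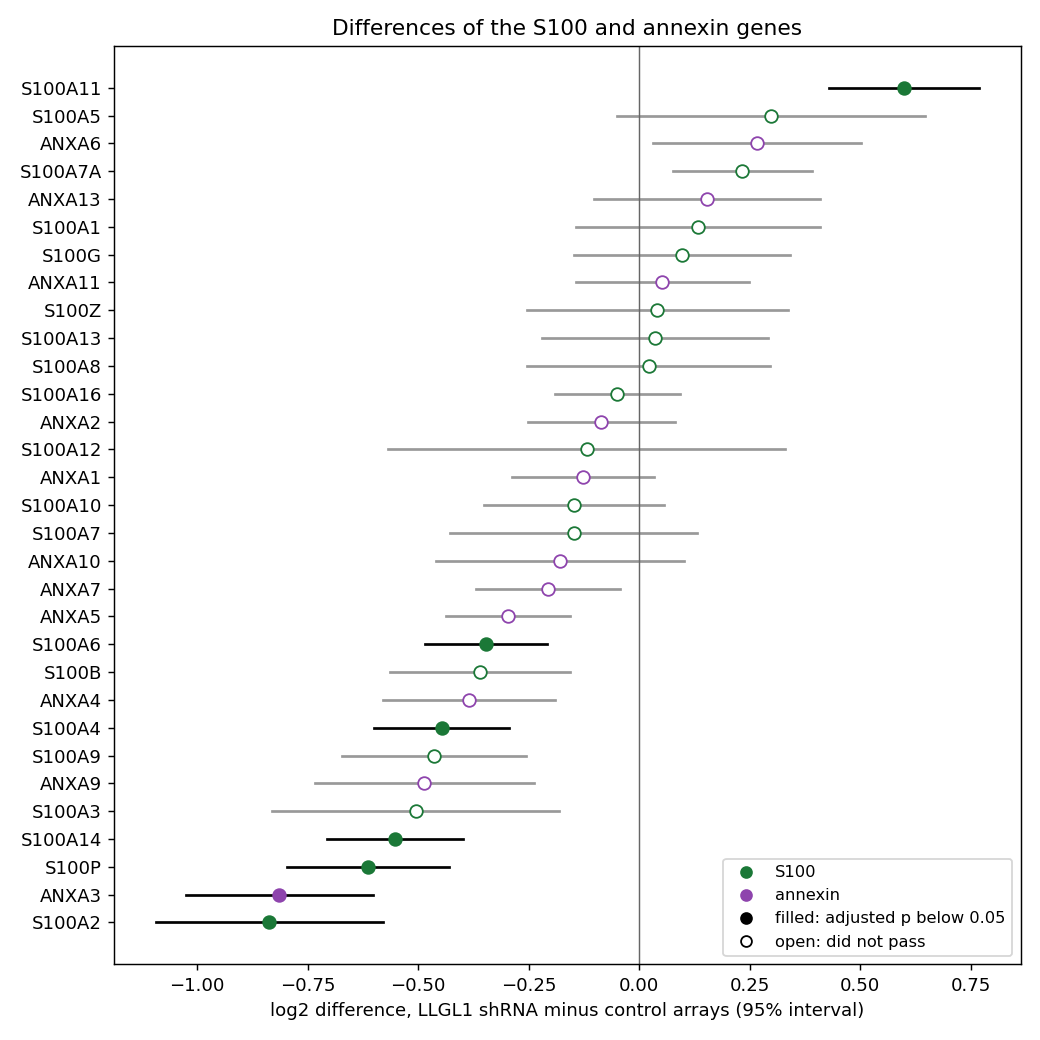
Log2 difference of each member, arrays labelled LLGL1 shRNA minus control arrays, with its 95% interval from limma. Green marks S100 genes and purple annexins, and filled points passed at an adjusted p below 0.05: S100A11 at 0.60 above 0, and 6 members from -0.35 for S100A6 to -0.84 for S100A2 below it.

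Of the inflammatory S100 genes none passed. S100A9, which pairs with S100A8 to form calprotectin in neutrophils and stressed epithelium, read 4.05 and 3.89 on the arrays labelled LLGL1 shRNA and 4.42 and 4.44 on the control arrays, a log2 difference of -0.47 (limma adjusted p = 0.0518). It passed under 4 alternatives, median centring and cyclic loess among them (adjusted p 0.0296 and 0.0317). Its partner S100A8 was below the array medians on every array, at 2.28 and 2.38, against 2.20 and 2.41. S100A12, the third of these myeloid proteins, was also below them, at 1.00 and 1.33, against 1.42 and 1.14. None of 9 measured markers of myeloid and other blood cells passed, against 6.28% called over all genes. Their summed linear signals were 63.7 and 59.5 on the arrays labelled LLGL1 shRNA and 58.4 and 59.0 on the control arrays. Of these 9, 6 were below the array median on all 4 arrays, PTPRC, the common leukocyte antigen, among them. CD14 (4.44 and 4.21, against 4.25 and 4.28), CSF3R and ITGAM were not.

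S100A3, known from the hair cuticle, read 3.75 and 4.04, against 4.42 and 4.38 on the control arrays, and its difference of -0.51 did not pass (limma adjusted p = 0.0859), though it did with median centring (adjusted p = 0.0356) and with trend and robust priors (0.0229). S100A7A, a psoriasin-like protein of inflamed skin, read 4.40 and 4.33, against 4.15 and 4.12, a difference of 0.23 (limma adjusted p = 0.094). The dimmer S100A7A probe set differed by 0.04. S100A5, known from olfactory neurons, read 3.67 and 3.67, against 3.53 and 3.21, a difference of 0.30 whose 95% interval of -0.05 to 0.65 includes 0. S100A1, known from heart and skeletal muscle, read 3.91 and 3.94, against 3.91 and 3.68, so its groups overlapped. S100A13, which takes part in the export of a fibroblast growth factor, overlapped as well, at 7.62 and 7.41, against 7.45 and 7.51, with a 95% interval of -0.22 to 0.29.

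Other S100 genes were at the dim end. S100A7 or psoriasin, S100A8, S100A12, S100G, a calcium buffer of intestine and kidney, S100Z and S100B, the glial S100 protein, were below the array median on all 4 arrays, 6 of the 20. S100B read 1.68 and 1.66, against 1.96 and 2.11, and its difference of -0.36 did not pass (limma adjusted p = 0.0717). The dimmer S100B probe set differed by -0.02. S100A7, S100G and S100Z differed by -0.15, 0.10 and 0.04. None of 5 measured markers of glia and melanocytes passed, against 6.28% called over all genes.

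S100A10 is the partner of annexin A2, is held in a permanently active shape without calcium, and helps to bring plasminogen to the cell surface. Its brightest probe set read 11.73 and 11.63 on the arrays labelled LLGL1 shRNA, against 11.77 and 11.88 on the control arrays, a difference of -0.15 (limma adjusted p = 0.295, 95% interval -0.35 to 0.06). Its dimmer probe set read 5.25 and 5.05, against 6.02 and 6.14, a log2 difference of -0.93 (limma adjusted p = 0.0533 over all probe sets). The 2 probe sets of S100A10 thus gave different sizes, and with their mean S100A10 passed at -0.54 (adjusted p = 0.041).

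Of the 11 annexins, 1 fell, 0 rose and 10 did not pass, which gives 9.09% called, against 6.28% over all genes. Among the 7 annexins with a mean log2 signal of at least 8, 1 was called, against 10.5% of all genes at that level. At an unadjusted p below 0.05 in limma were 6 of the 11 (5 of the 10 that did not pass), against 5565 of all 19775 genes. A difference below 0 was found for 8 of the 11, and for 46.5% of all genes. ANXA3, a phospholipase-inhibiting annexin of neutrophils and epithelia, read 7.71 and 7.80 on the arrays labelled LLGL1 shRNA, against 8.50 and 8.64 on the control arrays. The groups were far apart relative to their spread (SD 0.0627 and 0.0951, n = 2 each), and the log2 difference was -0.81 (SE 0.0759, 95% interval -1.03 to -0.60, limma adjusted p = 0.0318), or 1.76-fold lower.

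Several other annexins lay lower by smaller amounts. ANXA4, an annexin of secretory epithelia, read 9.42 and 9.28, against 9.75 and 9.72 on the control arrays, a difference of -0.39 (limma adjusted p = 0.0607), and its dimmer probe set differed by -0.32. ANXA5, known for binding phosphatidylserine on dying cells, read 8.40 and 8.39, against 8.68 and 8.70, a difference of -0.30 (limma adjusted p = 0.0561). ANXA9, an annexin whose core lacks the usual calcium sites, read 4.97 and 5.16, against 5.59 and 5.52, a difference of -0.49 (limma adjusted p = 0.0614). The dimmer ANXA9 probe set differed by -0.09. In each of these 3 genes both arrays labelled LLGL1 shRNA were below both control arrays, which was also so for 24.7% of all genes. The count of annexins called depends on the processing: 3 passed with median centring, 2 with cyclic loess and 5 with trend and robust priors, all lower, and 6 of 9 where genes with a mean log2 signal under 5 were left out, 5 of them lower. With every probe set tested, at an adjusted p below 0.01, or without any 1 array, 0 annexins passed limma's test (6, 6 and 2 to 5 at an unadjusted p below 0.05).

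The most studied annexins, ANXA1 and ANXA2, did not pass. ANXA1, which dampens inflammation through formyl peptide receptors, read 10.72 and 10.78, against 10.85 and 10.91 on the control arrays, a difference of -0.13 with a 95% interval of -0.29 to 0.03. ANXA2, which binds S100A10 and plasminogen activator, read 11.98 and 11.89, against 12.02 and 12.02, a difference of -0.09 with an interval of -0.25 to 0.08. The other bright ANXA2 probe sets differed by -0.13 and -0.14. A dim ANXA2 probe set, below the array medians at 1.88 and 1.73, against 1.59 and 1.51, differed by 0.26 (limma adjusted p = 0.173 over all probe sets). RefSeq also lists ANXA2 pseudogenes. The bright probe sets carry the suffix that the maker gives to probes shared with other sequences, so their values may include the pseudogenes.

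ANXA7 or synexin, an annexin linked to granule fusion, read 8.90 and 8.82, against 9.05 and 9.09, a difference of -0.21 (limma adjusted p = 0.121). The dimmer ANXA7 probe set read 8.23 and 8.31, against 8.31 and 8.33, a difference of -0.05 with overlapping groups. ANXA11, which binds S100A6 and tethers RNA granules to lysosomes, read 9.25 and 9.13, against 9.17 and 9.10, and its groups overlapped. While this probe set differed by 0.05, the dimmer ANXA11 probe sets differed by -0.26 (limma adjusted p = 0.184 over all probe sets) and -0.07. ANXA6, a large annexin of membranes and cholesterol transport, leaned the other way at 5.87 and 5.70, against 5.47 and 5.56, a difference of 0.27 (limma adjusted p = 0.146). The dimmer ANXA6 probe set differed by 0.02. ANXA10 of gastric epithelium and ANXA13 of the gut were below the array median on all 4 arrays. ANXA8 is annotated only in a probe set that names a second gene and was left out.

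**Figure D3:**
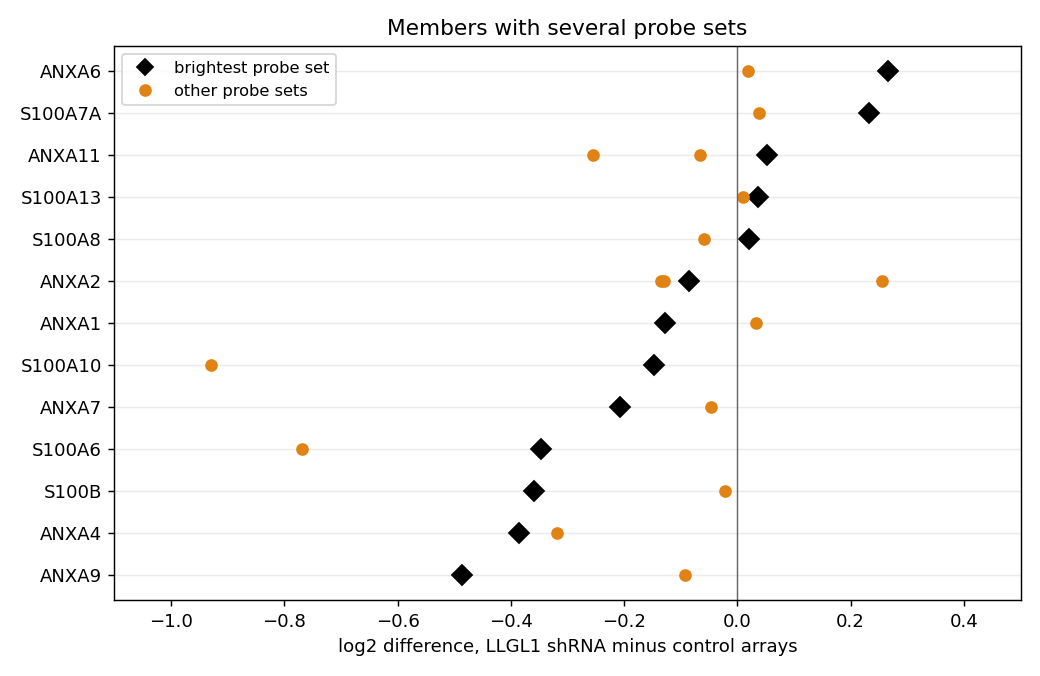
Log2 difference, arrays labelled LLGL1 shRNA minus control arrays, of every single-symbol probe set of the 13 members that have more than 1, with black diamonds for the brightest and orange points for the other 16. Of these 16, 11 have the sign of the brightest probe set and 5 the opposite one, and the dimmer probe sets of S100A10 (-0.93) and S100A6 (-0.77) lie furthest to the left.

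On chromosome 1, where 16 of the 20 S100 genes lie, members that fell and members that did not were interleaved. In the RefSeq gene order S100A6, S100A5, S100A4, S100A3 and S100A2 follow one another among the members, and their log2 differences were -0.35, 0.30, -0.45, -0.51 and -0.84. Of these 5, S100A6, S100A4 and S100A2 passed. S100A16 (-0.05), S100A14 (-0.55), S100A13 (0.04) and S100A1 (0.13) come next, of which S100A14 passed. On the other side, S100A10 (-0.15) and S100A11 (0.60) are neighbours among the members. ANXA9 comes first in this order. S100P, S100B, S100G and S100Z lie on other chromosomes.

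**Figure D4:**
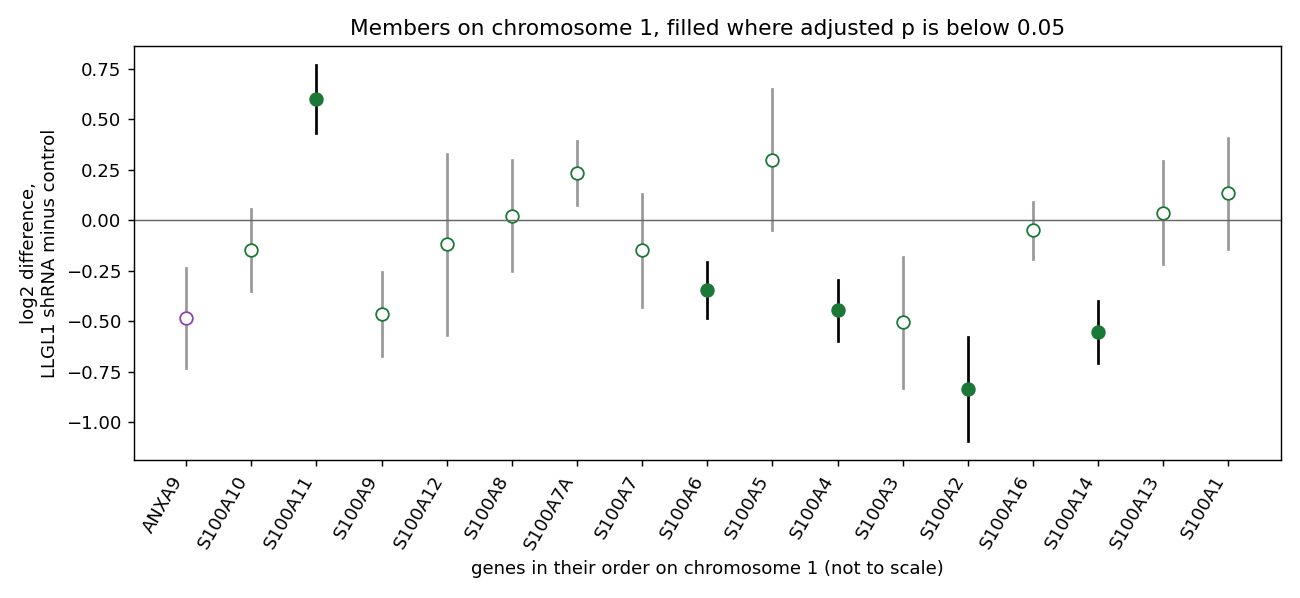
Log2 difference with its 95% interval for the 17 members on chromosome 1, arrays labelled LLGL1 shRNA minus control arrays, in gene order and not to scale. Filled points passed at an adjusted p below 0.05: S100A11 at 0.60, and S100A6, S100A4, S100A2 and S100A14 below 0.

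The same stretch of chromosome 1 holds the epidermal differentiation complex, including the fused-type S100 genes such as filaggrin and trichohyalin. Of 18 measured genes of this complex, 0 passed limma's test, against 6.28% of all genes. At an unadjusted p below 0.05 in limma were 0 of them, against 5565 of all 19775 genes. Their median log2 difference was -0.02, from -0.13 to 0.35. These genes were dim: 17 of the 18 had a mean log2 signal below 4, where 151 of all 9151 genes were called. Of these 18, 11 were below the array median on all 4 arrays. The largest differences were 0.35 for SMCP, -0.13 for SPRR3 and -0.12 for SPRR1B (limma adjusted p 0.409, 0.685 and 0.398).

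Among 38 measured binding partners, receptors and targets of S100 proteins and annexins, 4 fell and 2 rose (15.8% called, against 6.28% over all genes), with a median log2 difference of -0.02. Of the 12 partners with a mean log2 signal of at least 8, 4 were called, against 10.5% of all genes at that level. The urokinase PLAU, a plasminogen activator, read 5.88 and 5.91 on the arrays labelled LLGL1 shRNA, against 6.59 and 6.56 on the control arrays, and fell by 0.68 on the log2 scale (limma adjusted p = 0.0288). Its receptor PLAUR read 6.24 and 6.27, against 6.78 and 6.77, and fell by 0.52 (limma adjusted p = 0.033). CAPN2, a calcium-activated protease, fell by 0.46 and MYOF, a ferlin of membrane repair, by 0.36. CAPNS1, the small calpain subunit with EF-hands, rose by 0.48 and MDM2, the p53 ubiquitin ligase, by 0.36 (limma adjusted p = 0.0361 and 0.0496).

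Values of some other partners follow, named after they were seen. EZR, the linker bound by S100P, differed by -0.23 (limma adjusted p = 0.0967), CACYBP, the S100A6 partner, by 0.28 (0.0731), and MYH9, the myosin bound by S100A4, by 0.03. The receptor AGER read 4.04 and 3.75, against 3.63 and 3.96, so its groups overlapped.

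Of 38 measured genes for other small EF-hand proteins and for calcium-dependent membrane binders, 2 rose and 0 fell, 5.26%, with a median log2 difference of 0.03, near the 6.28% called over all genes. Both were copines, which bind phospholipids through C2 domains. CPNE1 read 5.74 and 5.64 on the arrays labelled LLGL1 shRNA, against 5.15 and 5.18 on the control arrays, and rose by 0.52 (limma adjusted p = 0.0356). CPNE8 read 2.54 and 2.71, against 1.45 and 1.40, and rose by 1.20 (limma adjusted p = 0.0249), with all 4 values below the array medians.

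Of the 24 members that did not pass, 14 had a difference below 0 and 10 above 0, where 46.5% of all genes lay below 0. Arrays of the 2 groups did not overlap for 16 of these 24, 12 of them lower. Over all 31 members, those that passed included, they did not overlap for 23, 18 of them lower, against 52.4% of all genes, 24.7% lower. Of the 7 members with an adjusted p from 0.05 to 0.1, 6 lay lower and S100A7A higher.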

How the data were processed

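Total RNA (100 ng per sample, per the labels' protocols) was hybridised to 4 arrays. The authors deposited log2 signals of 54675 probe sets, and the submitters' processing notes name RMA and Partek 6.6. How background was treated is not given in the sources used. A second deposited table holds the authors' p-value, ratio, fold change and F score per probe set, per the file headers, and was used only to look for members. Titles name siLLGL1 and NC, other labels shRNA lentivirus, which is followed here. Symbols come from the platform annotation. Only probe sets with exactly 1 symbol were used, controls excluded. Differences were tested on 19775 genes with lmFit and eBayes in limma 3.58.1 (R 4.3.3), two-sided, with Benjamini-Hochberg adjustment over all genes and a threshold of 0.05, with 2 residual and 1.94 prior degrees of freedom. The procedure was tested on simulated data. Every member is named. From the 3 other gene lists, members past the threshold are named, or the 3 largest differences where none passed. Members, lists and alternatives were chosen with earlier results of these data known. All 31 members matched the RefSeq gene table, and sequences are RefSeq's. The number of arrays limits the precision.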

Additional observations from a re-analysis of the deposited data

How the results depend on the processing

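The 7 members that passed kept their direction in every alternative run. Median centring gave 1881 called genes in all and 3 annexins. Cyclic loess gave 2096 and 2, trend and robust priors 3935 and 5, with 13 partner and 6 calcium-binding genes. With genes under a mean log2 signal of 5 left out, 3939 genes, 6 annexins, 14 partner and 9 calcium-binding genes passed, and no epidermal complex gene was left to test. The mean of all probe sets gave 3 annexins and 4 calcium-binding genes. It turned LLGL1 to 0.0079, ANXA11 to -0.090 and S100A8 to -0.019. With every probe set tested, 192 genes in all passed (5248 at an unadjusted p below 0.05). The groups gave 0 S100 genes (10 at that unadjusted p), 0 annexins (6), 1 partner and 1 calcium-binding gene. At an adjusted p below 0.01, 13 genes in all and 0 in each of the S100, annexin, partner and calcium-binding groups passed. Under the 5 alternatives of scaling, priors, signal filter and mean of probe sets, 6 to 8 S100 genes passed. Without any 1 array 0 genes passed in limma in every group, 0 to 0 (3496 to 4546 genes in all at an unadjusted p below 0.05), in fits with 1 residual degree of freedom where the lone array is taken to vary like the other group. Those fits gave log2 differences of -0.0071 to 0.11 for ANXA11, -0.28 to 0.046 for S100A12, -0.067 to 0.14 for S100A13, -0.086 to 0.13 for S100A8, -0.0048 to 0.20 for S100G and -0.091 to 0.17 for S100Z, whose signs turned. Other members that had not passed kept their sign but moved, such as S100A5 (0.14 to 0.46), S100A1 (0.014 to 0.25), S100A7 (-0.25 to -0.05) and ANXA2 (-0.13 to -0.04). With the replicate number as a block 0 genes in all passed (4284 at an unadjusted p below 0.05), and 0 S100, annexin, partner and calcium-binding genes. The labels do not say that a number marks a shared culture or day. Deviations of same-numbered arrays correlated at -0.13 across genes. With 2 arrays per group this is a single value and cannot show whether the numbers pair the arrays.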

Other observations

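Differences of known protein pairs among the members are set side by side, each from the brightest probe set of the gene. For S100A11 and annexin A1 the log2 differences were 0.60 (95% interval 0.43 to 0.77) and -0.13 (-0.29 to 0.03). For S100A10 and ANXA2 they were -0.15 (-0.35 to 0.06) and -0.09 (-0.25 to 0.08), and for S100A6 and ANXA11 -0.35 (-0.49 to -0.21) and 0.05 (-0.14 to 0.25). For S100A9 and S100A8 they were -0.47 and 0.02, S100A8 being below the array medians on all 4 arrays. The difference within a pair was not tested.

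Summed linear signals of the 20 S100 genes were 13874 and 13336 on the arrays labelled LLGL1 shRNA and 16635 and 17141 on the control arrays, and those of the 11 annexins 8137 and 7828 on the arrays labelled LLGL1 shRNA and 8827 and 8918 on the control arrays. Over all 19775 genes the sums were 2376000 and 2332900 on the arrays labelled LLGL1 shRNA and 2342200 and 2382200 on the control arrays. Scaling between arrays in the deposited processing can make such totals alike, so they are no independent yardstick. The sums of both families are led by their brightest members, and none of the sums was tested.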
